A study of Mus musculus with 6 samples.

Results

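Caveolae are small flask-shaped pits of the plasma membrane, and the 5 genes described here, Cav1, Cav2, Cavin1, Cavin2 and Cavin3, encode their main coat proteins. They were chosen by gene symbol, with earlier results of these libraries in view, from the 55401 genes of the deposited table, and each symbol matched 1 row. The difference between the groups in these 5 genes is therefore given as a description, without a test. Messenger RNA was measured in 6 libraries of mouse cells. The 3 SSC libraries hold spermatogonial stem cells from the testes of 6-day-old males, kept on mitotically inactivated STO fibroblast feeders with 10% serum, GDNF (20 ng/mL), EGF, LIF and bFGF (10 ng/mL). STO cells are themselves mouse fibroblasts. In the 3 iNSC libraries are neural stem cell-like cells, made from such cells in 6 days of transdifferentiation on laminin: retinoic acid (1 µM) for 24 h, then a medium with N2, B27, insulin, 1% serum, bFGF (20 ng/mL) and the TGF-beta receptor inhibitor SB431542 (10 µM). No genotype or transgene is named for either group, and feeder, serum, growth factors and cell state change together, so their parts in any difference cannot be told apart.

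As background, caveolin-1 is a cholesterol-binding hairpin protein that inserts into the inner leaflet and oligomerises, and caveolin-2 forms hetero-oligomers with it and depends on it to leave the Golgi. Caveolin-3 takes the place of caveolin-1 in muscle. Cavin-1 is the soluble coat protein without which caveolae do not form, and it trimerises with cavin-2, which shapes the membrane, or with cavin-3, which binds protein kinase C delta and is linked to trafficking. Caveolae are abundant in fibroblasts, endothelium, adipocytes, smooth muscle and some epithelia, where they buffer membrane tension and hold signalling receptors.

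The libraries held 18058551 to 20156067 counts. The summed FPKM (counts scaled by the gene's exonic length and by the library's total) of 6 germ cell markers was 856 to 925 in SSCs and 25.6 to 32.6 in iNSCs, with all 6 lower in iNSCs. This sum hides changes by gene over SSCs replicates 1 to 3. Gfra1 (25.6, 36.5 and 58.0 FPKM) and Zbtb16 (30.5, 53.7 and 59.7 FPKM) were highest in replicate 3, and Uchl1 (481, 381 and 319 FPKM) was lowest there. By smaller margins, Dazl and Sall4 were highest and Ddx4 was lowest in replicate 3. Groups follow the sample titles; the cell type label of each of the 6 samples names the other group, and these germ cell levels are high in the libraries titled SSCs. Of 6 neural stem cell markers, Nes and Prom1 rose in iNSCs, whereas Sox2 and Pax6 fell: Sox2 was at most 0.05 FPKM there, Pax6 at most 0.04 FPKM and Sox1 at 0 counts. Markers of simple epithelium (6 genes) summed to 150 to 247 FPKM in SSCs and 2500 to 2940 FPKM in iNSCs. Those of mesothelium (4 genes) summed to 4.26 to 17.8 and 196 to 261 FPKM. All 4 mesothelial and 5 of the 6 epithelial markers rose. Epcam was not called, at 127, 127 and 206 FPKM in SSCs replicates 1 to 3 and 91.7 to 110 FPKM in iNSCs. It made up most of the epithelial sum in SSCs. SSCs replicate 3 stood apart from the other SSC libraries: 10 fibroblast markers summed to 441, 395 and 55.9 FPKM in SSCs replicates 1, 2 and 3, and 5 smooth muscle and myoid markers to 524, 449 and 23.6 FPKM. Their sums in iNSCs were 126 to 174 FPKM and 252 to 300 FPKM. All 5 smooth muscle and myoid markers and 7 of the 10 fibroblast markers were lowest in SSCs replicate 3. Of the other fibroblast markers, Dcn was highest there among SSCs. Pdgfra was nearly equal in SSCs replicates 1 and 3 (5.16 and 5.27 FPKM), and Lum was near the floor (4, 1 and 4 counts). The collagens made up most of the fibroblast sum in SSCs; by gene, Dcn, Lum, Pdgfra and Thy1 rose in iNSCs and Postn fell. Of 6 Sertoli cell markers, which summed to 316, 54.5 and 108 FPKM in SSCs and 662 to 859 FPKM in iNSCs, 4 rose and none fell, while Amh was at most 0.18 FPKM and Fshr at most 0.04 FPKM in iNSCs. The part of any of these cell types in the values below was not tested. Fewer cells of a type and less RNA per cell cannot be told apart in such bulk samples.

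The caveolin genes come first. Cav1 (ENSMUSG00000007655, chromosome 6, 17306335 to 17341452, plus strand) had 6.48, 3.68 and 4.76 FPKM in the SSC libraries, replicates 1 to 3, and 47.6, 40.6 and 39.8 FPKM in the iNSC libraries, replicates 1 to 3. The groups did not overlap, and the lowest iNSC library was 6.14 times the highest SSC library. The means were 4.97 ± 1.41 FPKM in SSCs and 42.6 ± 4.29 FPKM in iNSCs (SD, n = 3 each), a log2 difference of 3.36 (SE 0.20) in edgeR's fit of scaled counts. Cav2 (ENSMUSG00000000058, chromosome 6, 17281185 to 17289115, plus strand) had 1.64, 0.810 and 0.290 FPKM in SSCs and 23.65, 26.8 and 28.0 FPKM in iNSCs, in the same order of replicates. It was the lowest of the 5 genes in every SSC library and had the largest difference, with means of 0.913 ± 0.681 and 26.2 ± 2.25 FPKM and a log2 difference of 5.10 (SE 0.49).

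Cavin1 (ENSMUSG00000004044, chromosome 11, 100956733 to 100970887, minus strand), which encodes the coat protein that caveolae need to form, was the highest of the 5 genes in every library. It had 61.45, 58.45 and 60.8 FPKM in SSCs and 145, 141 and 155 FPKM in iNSCs. The SSC libraries, replicate 3 included, lay within a ratio of 1.05 of each other, and the groups did not overlap. With means of 60.25 ± 1.59 and 146.9 ± 6.94 FPKM, Cavin1 had the smallest difference of the 5 (log2 1.54, SE 0.10). Already in SSCs its mean level was above that of 95.2% of the 17387 genes tested, against 51.8% for Cav1 and 22.7% for Cav2.

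Cavin2 (ENSMUSG00000045954, chromosome 1, 51289126 to 51302960, plus strand) had 5.97, 5.17 and 0.370 FPKM in SSCs and 47.9, 33.0 and 36.6 FPKM in iNSCs. SSCs replicate 3 held 21 counts of it, for which an exact 95% Poisson interval is 0.227 to 0.561 FPKM, so its gap to the other SSC libraries is larger than counting error. The means were 3.84 ± 3.03 and 39.15 ± 7.755 FPKM, and the log2 difference of 3.63 had the widest SE of the 5 genes, 0.77. Cavin3 (ENSMUSG00000037060, chromosome 7, 105480083 to 105482300, minus strand) had 7.52, 4.26 and 1.03 FPKM in SSCs and 14.8, 14.7 and 16.0 FPKM in iNSCs. Its groups did not overlap, but the lowest iNSC library was only 1.96 times the highest SSC library. The means were 4.27 ± 3.25 and 15.2 ± 0.709 FPKM (log2 2.11, SE 0.55).

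All 5 genes passed the expression filter and met the threshold used for other genes below, called higher at an adjusted p under 0.05 and a log2 difference of at least 1. So did 25.7% of the 17387 genes tested, while 27.6% were called lower. Since these genes were proposed from this contrast, nothing is read from their count or from the lack of overlap between their groups. The share of all genes tested whose groups do not overlap was not counted. With library totals in place of TMM scaling, log2 differences of all genes shifted by a median of -0.26, and the 5 genes stayed higher in iNSCs by 1.285 (Cavin1) or more.

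**Figure D1:**
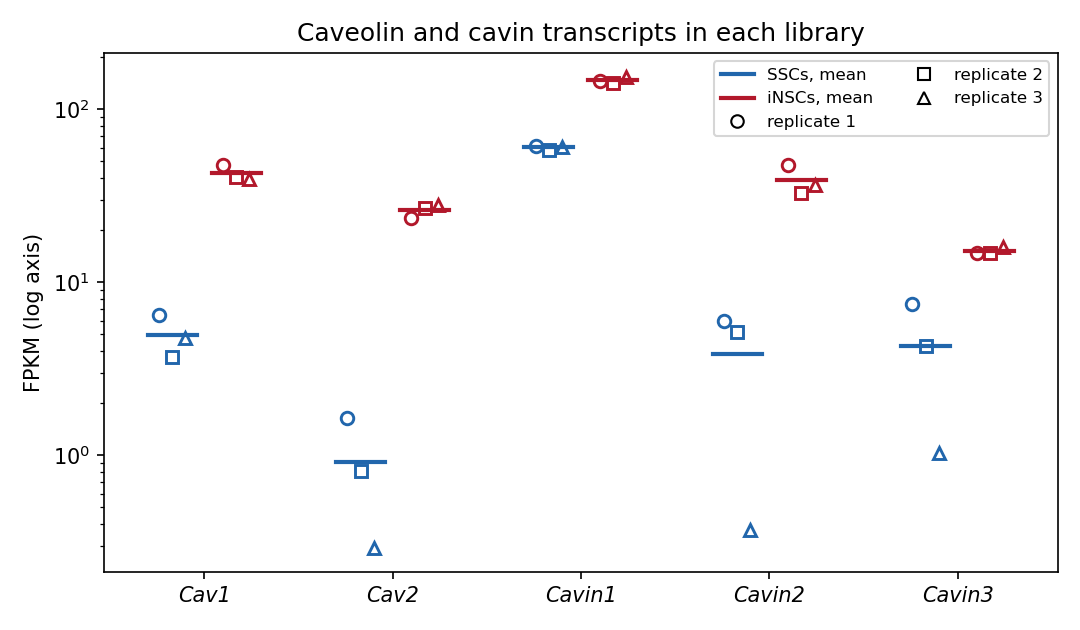
FPKM of the 5 caveolae genes in each library (log axis, symbols are replicates, bars are means of 3 libraries, SSCs in blue and iNSCs in red). For each gene the 3 iNSC points lie above the 3 SSC points. Nothing is read from this separation, since the genes were chosen on this contrast. SSCs replicate 3 falls to 0.370 FPKM for Cavin2 and 0.290 FPKM for Cav2 while Cavin1 stays at 60.8 FPKM.

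The 5 genes differed in how they varied among the SSC libraries. The ratio of the highest to the lowest SSC library was 1.05 for Cavin1 and 1.76 for Cav1, but 5.66 for Cav2, 7.30 for Cavin3 and 16.1 for Cavin2. The last 3 genes were lowest in SSCs replicate 3, the library with the lowest sums of fibroblast and of smooth muscle markers, and Cav1 was lowest in SSCs replicate 2. That library had the lowest SSC sums of mesothelial (17.8, 4.26 and 15.8 FPKM in replicates 1 to 3) and Sertoli markers (316, 54.5 and 108 FPKM). Its macrophage, adipocyte and skeletal muscle sums were the lowest too. Over SSCs replicates 1 to 3, the collagen gene Col1a1 stood at 189, 168 and 23.0 FPKM and the smooth muscle actin gene Acta2 at 367, 310 and 16.2 FPKM. The fibroblast marker Dcn (1.68, 0.23 and 2.91 FPKM) was highest in replicate 3, and Pdgfra (5.16, 4.19 and 5.27 FPKM) was nearly equal in replicates 1 and 3. Without SSCs replicate 3 the log2 differences were 3.34 for Cav1, 4.67 for Cav2, 1.56 for Cavin1, 3.08 for Cavin2 and 1.63 for Cavin3. Among iNSC libraries the same ratio was at most 1.45 (Cavin2) and 1.20 or less for the other 4 genes.

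**Figure D2:**
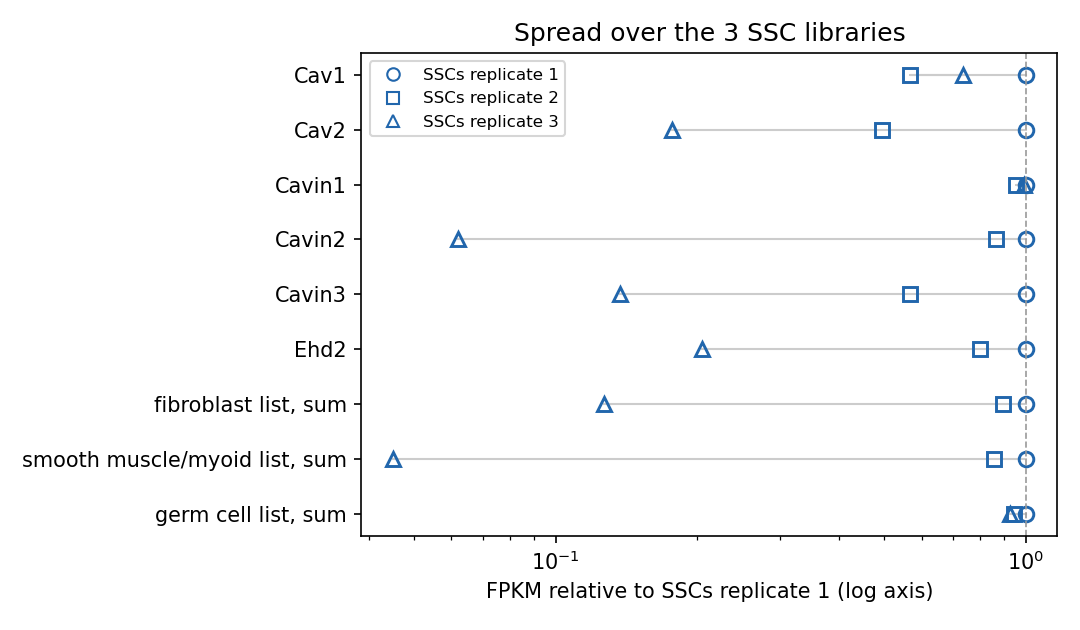
Level of each gene, or summed level of a marker list, in each SSC library relative to SSCs replicate 1 (FPKM ratio, log axis). Cav2, Cavin2, Cavin3 and Ehd2 are far lower in replicate 3, as are the sums of the fibroblast and smooth muscle lists. Cavin1 and the sum of the germ cell list lie close together in all 3 libraries, though single germ cell markers such as Gfra1 and Uchl1 do not.

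Other cell types rich in caveolae were also measured. The 7 endothelial markers summed to 4.87 to 5.58 FPKM in SSCs and 0.930 to 1.44 FPKM in iNSCs, with 5 lower and none higher. The 5 adipocyte markers summed to 0.76 to 1.47 FPKM in SSCs and 2.08 to 2.75 FPKM in iNSCs. Of these, Fabp4 rose by a log2 difference of 4.47 and Adipoq fell by 4.69 on the log2 scale, and the others were at most 0.12 FPKM in any library.

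FPKM is scaled by exon length, so the 5 genes can be set against each other within a library. In SSCs, Cavin1 was followed by Cav1, Cavin3 and Cavin2, whose ranges over the libraries overlapped, and by Cav2, whose range overlapped those of Cavin2 and Cavin3 but not that of Cav1. In iNSCs the order was Cavin1, then Cav1 and Cavin2 with overlapping ranges, then Cav2, then Cavin3. Cavin1 made up 74.0% to 90.4% of the summed FPKM of the 5 genes in SSCs and 52.0% to 56.2% in iNSCs. The sum itself was 67.3 to 83.1 FPKM in SSCs and 256 to 279 FPKM in iNSCs.

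The ratio of Cavin1 to Cav1 was 9.48, 15.9 and 12.8 in SSCs replicates 1, 2 and 3 and 3.05, 3.48 and 3.89 in iNSCs. The ratio of Cav2 to Cav1 was 0.253, 0.220 and 0.0609 in SSCs and 0.497, 0.661 and 0.704 in iNSCs. Neither ratio overlapped between the groups: relative to Cav1, SSC libraries carried more Cavin1 and less Cav2 transcript. The ratio of Cavin2 to Cavin1 was 0.0972, 0.0885 and 0.00608 in SSCs and 0.330, 0.234 and 0.237 in iNSCs, also without overlap. The ratio of Cavin3 to Cavin1 was 0.122, 0.0729 and 0.0169 in SSCs and 0.102, 0.104 and 0.103 in iNSCs. Here the iNSC values lay inside the SSC range. These ratios come from the contrast that the genes were chosen on and carry no test.

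**Figure D3:**
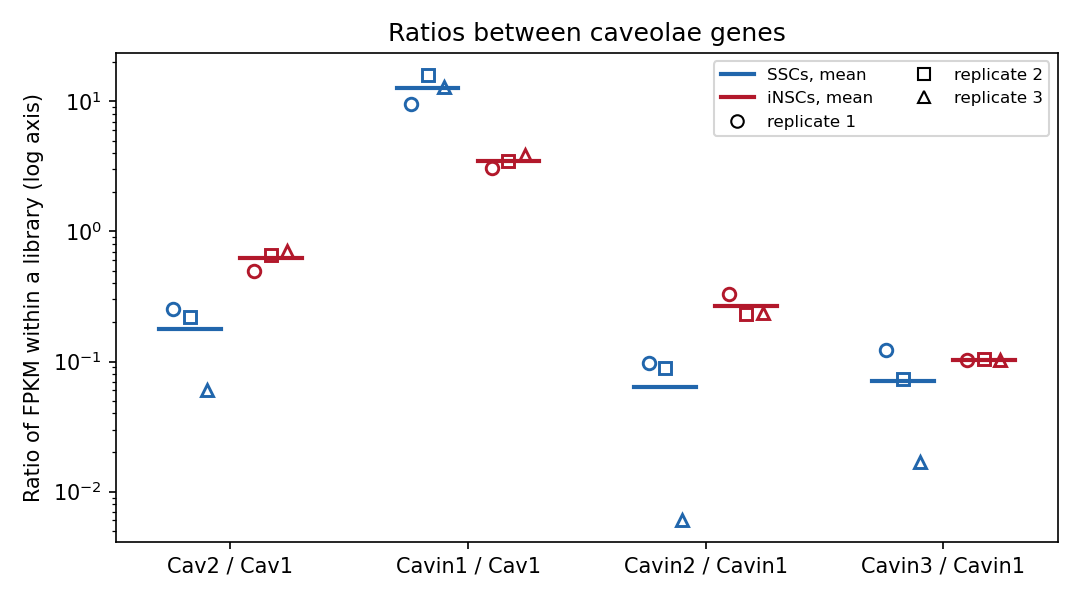
Ratio of FPKM between pairs of caveolae genes within each library (log axis, symbols are replicates, bars are means, SSCs in blue and iNSCs in red). Cavin1 to Cav1 is higher in all 3 SSC libraries, Cav2 to Cav1 and Cavin2 to Cavin1 are lower, and Cavin3 to Cavin1 overlaps.

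The rest of the caveola machinery was followed with a list of 13 partner genes: the muscle caveolin and cavin, the EHD ATPases and pacsins of the caveola neck, the Ror1 scaffold and the dynamins. Of 12 tested, 6 rose and 1 fell in iNSCs, with a median log2 difference of 0.90, against 25.7% higher, 27.6% lower and a median of -0.05 for all genes tested (edgeR quasi-likelihood test). With library totals in place of TMM, 4 rose, without Dnm1 and Dnm3.

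Ehd2, the EHD protein that sits at the neck of caveolae and anchors them, had 14.8, 11.8 and 3.03 FPKM in SSCs and 64.3, 63.4 and 62.1 FPKM in iNSCs. It rose by a log2 difference of 2.95 (SE 0.50, adjusted p = 0.00114), and 2.52 without SSCs replicate 3, where it was low together with Cavin2. Ehd4 had 21.7, 22.25 and 22.1 FPKM in SSCs and 65.9, 68.6 and 69.9 FPKM in iNSCs (log2 1.88, SE 0.10, adjusted p = 5.44e-06), close to equal over the SSC libraries, as Cavin1 was. Ehd1 (log2 0.54) and Ehd3 (log2 0.31) did not pass the size threshold.

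The pacsins are membrane-bending proteins with an F-BAR domain, and their 3 genes went different ways. Pacsin3, the form enriched in muscle, had 4.53, 3.85 and 2.40 FPKM in SSCs and 13.75, 16.1 and 16.8 FPKM in iNSCs, and rose by a log2 difference of 2.375 (SE 0.22, adjusted p = 5.97e-05). Pacsin2, the widely expressed form found at caveolae, was at 54.0 ± 5.05 and 60.3 ± 1.94 FPKM (log2 0.415, adjusted p = 0.0057), under the size threshold. Pacsin1, the neuronal form, had 5.20, 5.36 and 3.04 FPKM in SSCs and 0.1, 0.09 and 0.02 FPKM in iNSCs, and fell by 5.825 on the log2 scale (SE 0.49, adjusted p = 3.92e-05).

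Ror1, a receptor-like kinase known as a scaffold for caveolin-1 and cavin-1, was at 0.227 ± 0.0751 FPKM in SSCs and rose to 1.92 ± 0.508 FPKM (log2 3.315, SE 0.345, adjusted p = 1.09e-04), still a low level. The dynamins cut vesicles from the membrane. Dnm2, the form of most cells, was at 28.4 ± 1.97 and 39.2 ± 2.16 FPKM (log2 0.72, under the size threshold). Dnm1 (log2 1.08, adjusted p = 0.00547) and Dnm3 (log2 1.205, adjusted p = 0.00599, at most 0.110 FPKM) were called higher, but not with library totals, at 0.82 and 0.96. Dnm1 also lost its call without SSCs replicate 3 (0.86) or iNSCs replicate 2 (0.99).

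The muscle forms were near the floor. Cavin4 had 34 counts over the SSC libraries and 34 over the iNSC libraries (log2 0.185, adjusted p = 0.766, and below 0 under library totals). Cav3 had 20, 8 and 3 counts in SSCs and 1, 0 and 4 in iNSCs and was too low to be tested. SSCs replicate 1, which held most of them, was also the library with the highest levels of the skeletal muscle genes Acta1 (23.0 FPKM) and Ckm (8.19 FPKM), both at most 0.42 FPKM in the other SSC libraries. The other genes of that list of 4, the myogenic factors Myod1 and Myog, were not higher in SSCs replicate 1. Myog was about equal over SSCs replicates 1 to 3 (22, 22 and 23 counts), and Myod1 (2, 7 and 8 counts) was too low to be tested.

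Other membrane families were set beside caveolae. The flotillins and stomatins are hairpin proteins of cholesterol-rich membrane that do not build caveolae. Of 6 tested, 2 rose (33.3%, median log2 0.39), against 25.7% of all genes tested. Stom, which encodes the red cell membrane protein stomatin, was at 3.74 ± 0.976 FPKM in SSCs and rose to 25.8 ± 0.917 FPKM in iNSCs (log2 3.05, SE 0.18, adjusted p = 9.55e-06), and Stoml1 rose by a log2 difference of 2.24 (adjusted p = 7.39e-04). Flot1 (log2 0.43), Flot2 (log2 0.34) and the mitochondrial Stoml2 (log2 -0.57) did not pass the size threshold, and Stoml3 was too low to be tested. Of 20 genes of the clathrin coat, the other main endocytic coat, 6 rose and 2 fell (30.0% and 10.0%, median log2 0.62). Over all genes tested, 25.7% rose, a share near that of this list, and 27.6% fell. Dab2, an adaptor of epithelia that links integrins and LDL receptor family members to clathrin, rose by a log2 difference of 3.61 (SE 0.33, adjusted p = 5.67e-05), Itsn2 by 1.84 and the light chain gene Cltb by 1.81, while the early-acting Fcho1 fell by 2.21 and the epsin gene Epn2 by 1.79 on the log2 scale.

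Of 19 tested genes for receptors and kinases known to reside in or bind to caveolae, 9 rose and 3 fell (median log2 0.78). These shares were 47.4% and 15.8%, against 25.7% and 27.6% of all genes tested. Tgfbr2, the type II TGF-beta receptor, had 4.72, 4.23 and 4.30 FPKM in SSCs and 66.1, 70.7 and 76.1 FPKM in iNSCs (log2 4.26, SE 0.12, adjusted p = 8.69e-07). Egfr, the EGF receptor, had 2.04, 3.06 and 0.460 FPKM in SSCs and 13.5, 16.1 and 15.8 FPKM in iNSCs (log2 3.30, SE 0.57, adjusted p = 0.00137). The fatty acid transporter gene Cd36 (log2 2.94, SE 0.85, adjusted p = 0.015) and the bradykinin receptor gene Bdkrb2 (log2 2.14, adjusted p = 0.00102) rose as well. Cd36 was low throughout, with 44, 1 and 6 counts in SSCs replicates 1 to 3 and 1.26 to 1.81 FPKM in iNSCs. The Src family kinase gene Fyn fell by 1.92 on the log2 scale (adjusted p = 9.92e-04). The other genes that fell, named after their values were seen, were Nos3, the endothelial nitric oxide synthase that caveolin-1 inhibits (log2 -1.53, adjusted p = 0.00852), and Kdr, the endothelial VEGF receptor (log2 -1.14, adjusted p = 0.0494), both at most 0.63 FPKM in any library. Kdr lost its call without SSCs replicate 2 or 3 or iNSCs replicate 1 or 2 (log2 -1.18 to -0.82).

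YAP, TAZ and their TEAD partners are transcription regulators that respond to cell tension and are reported to regulate caveolin and cavin genes. Of 13 genes, 9 rose and 1 fell (69.2% and 7.69%, median log2 1.73), against 25.7% and 27.6% of all genes tested. The TEAD genes themselves split: Tead1 rose from 7.33 ± 0.656 to 20.5 ± 1.06 FPKM (log2 1.73, adjusted p = 2.05e-05), Tead4 by a log2 difference of 2.35 and Tead3 by 1.42, while Tead2 fell from 22.7 ± 2.97 to 6.25 ± 0.515 FPKM (log2 -1.60, adjusted p = 2.66e-05). Wwtr1, which encodes TAZ, rose by a log2 difference of 1.71, and Yap1 (log2 0.84) did not pass the size threshold.

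The target genes of YAP differed in how they varied over the SSC libraries. Ccn1, a matrix-associated target, had 160, 117 and 24.1 FPKM in SSCs and 368, 406 and 397 FPKM in iNSCs (log2 2.24, SE 0.57, adjusted p = 0.00845). Ankrd1 had 55.15, 35.7 and 5.13 FPKM in SSCs and 167, 176 and 170 FPKM in iNSCs (log2 2.70, SE 0.69, adjusted p = 0.00884). Axl, a receptor kinase, rose by a log2 difference of 1.96, Amotl2 by 1.86 and Ajuba by 2.23, while Lats2 (log2 0.45) was not called. Ccn1, Ankrd1, Axl and Amotl2 were lowest in SSCs replicate 3, whereas Ajuba was highest there (17.03, 12.6 and 19.2 FPKM over SSCs) and Lats2 varied little (6.40, 5.44 and 5.18 FPKM). Ccn2, the other matrix-associated target, had 294, 151 and 46.7 FPKM in SSCs and 106, 95.8 and 99.5 FPKM in iNSCs, so that its groups overlapped (log2 -0.42, adjusted p = 0.484, and 0.27 without SSCs replicate 1).

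**Figure D4:**
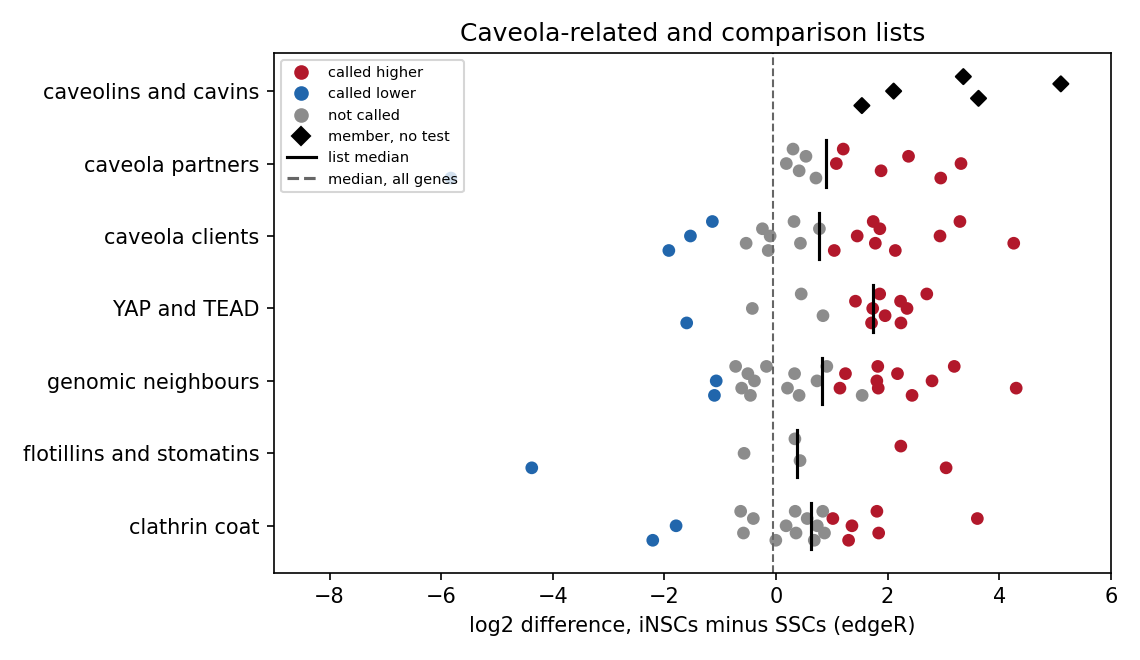
Log2 difference between iNSCs and SSCs of each tested gene of a list (edgeR, red called higher, blue called lower, grey not called, black diamonds the 5 caveolae genes, which carry no test). Short bars are list medians, from 0.39 for flotillins and stomatins to 1.73 for YAP and TEAD genes, against the dashed median of -0.05 for all genes.

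Cav2 and Cav1 are neighbours on chromosome 6, in the same orientation, with 17.2 kb between the end of Cav2 and the start of Cav1. For each of the 5 genes the 3 nearest tested genes with an ordinary symbol on each side were taken. Members were left out, as were symbols of predicted genes, clones, RIKEN genes and pseudogenes. Of the 24 neighbours, 10 rose and 2 (Tmeff2 at -1.10 and Hpx at -1.07) fell. These shares were 41.7% and 8.33%, against 25.7% and 27.6% of all genes tested. The call of Tmeff2 was lost without SSCs replicate 2 or iNSCs replicate 2 or 3, and that of Hpx without SSCs replicate 3 or any 1 iNSC library (0 to 2 of the neighbours lower). Around Cav1 and Cav2, 5 of 6 rose (median log2 2.62). Around the 3 cavin genes, which lie on other chromosomes, 5 of 18 rose (median log2 0.27), a share near the 25.7% of all genes tested. No test compared these shares. The loci also differed in how far the neighbours lay. Apart from Mdfic, those of Cav1 and Cav2 lay within 408 kb. Slc39a10 and Dnah7b lay 4396 and 4916 kb from Cavin2, and Trim30d and Trim30a 972 and 1015 kb from Cavin3.

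The risers beside Cav1 and Cav2 included Met, the receptor of hepatocyte growth factor, at 3.20 ± 0.471 and 24.6 ± 0.782 FPKM (log2 3.19, SE 0.13, adjusted p = 2.72e-06), and Tes, a focal adhesion protein, at 5.89 ± 1.18 and 26.65 ± 2.72 FPKM (log2 2.44, SE 0.15, adjusted p = 1.14e-05). Tfec, a transcription factor, rose by a log2 difference of 4.30 from 21 counts in SSCs, and Mdfic, which lies 1479 kb beyond Cav2, by 2.80. The actin capping gene Capza2 (log2 0.91) was not called and St7 rose by 1.83. Farther out, Asz1, a germ cell gene of the piRNA pathway whose start lies 803 kb from that of Cav1, fell by 5.54 on the log2 scale (adjusted p = 4.21e-06), from 29.2 to 0.527 FPKM. St7, Capza2 and Asz1 were named after their values were seen. Among the cavin neighbours the lysosomal enzyme gene Naglu, beside Cavin1, had the largest difference (log2 2.18, adjusted p = 2.82e-04), and Stat3, the nearest neighbour of Cavin1, was not called (log2 -0.46).

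**Figure D5:**
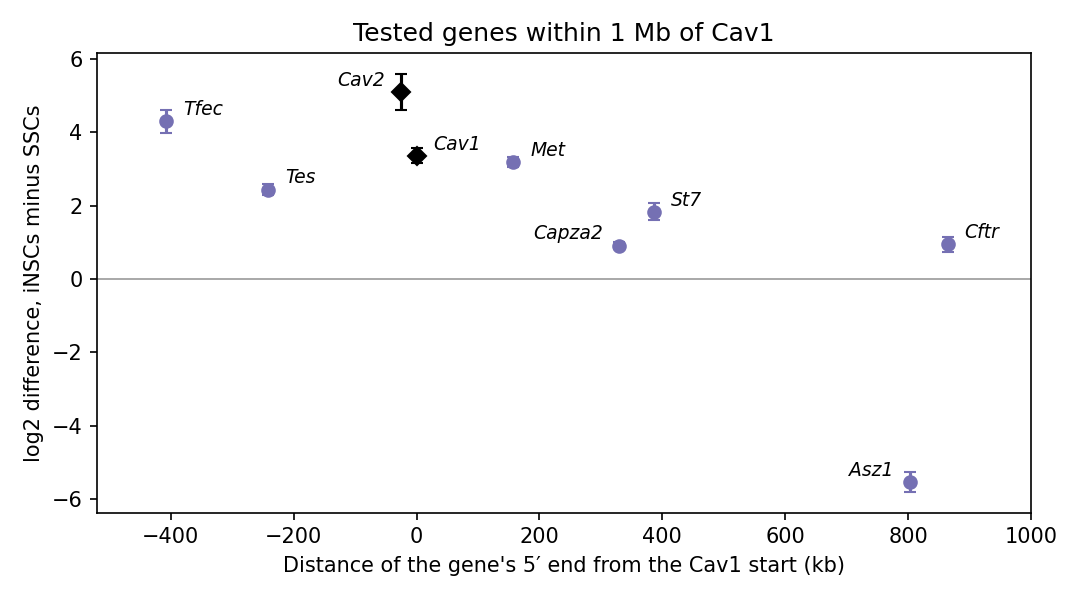
Log2 difference between iNSCs and SSCs (error bars are SE) of the tested genes whose start lies within 1 Mb of the Cav1 start, against distance in kb. Black diamonds are Cav1 and Cav2, which carry no test; Tfec, Tes, Met and St7 are called higher, Capza2 and Cftr are not called, and Asz1 is at -5.54.

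The stretches before the starts of Cav1, Cav2 and Cavin2, the 3 genes with the largest differences, are shown here. They are the 250 bases before the RefSeq start that equals the start of the gene in the deposited table (GRCm38.p6), 5′ to 3′, at chr6:17306085-17306334 (plus strand), chr6:17280935-17281184 (plus strand) and chr1:51288876-51289125 (plus strand). Capitals mark matches, on either strand, to 6 motifs: the GC box GGGCGG, the TEAD motif CATTCC, the AP-1 motif TGACTCA, the CCAAT box, the TATA box TATAAA and the E-box CACGTG.
Cav1: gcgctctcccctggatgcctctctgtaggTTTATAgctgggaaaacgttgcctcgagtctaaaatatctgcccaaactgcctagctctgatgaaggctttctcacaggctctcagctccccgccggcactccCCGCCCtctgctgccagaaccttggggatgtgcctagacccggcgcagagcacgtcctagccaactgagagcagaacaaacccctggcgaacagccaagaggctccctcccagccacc
Cav2: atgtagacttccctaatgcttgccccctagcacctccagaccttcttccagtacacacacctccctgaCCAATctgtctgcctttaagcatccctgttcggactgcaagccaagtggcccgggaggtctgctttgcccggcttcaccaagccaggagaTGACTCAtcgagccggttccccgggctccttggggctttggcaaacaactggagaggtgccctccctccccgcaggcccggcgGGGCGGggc
Cavin2: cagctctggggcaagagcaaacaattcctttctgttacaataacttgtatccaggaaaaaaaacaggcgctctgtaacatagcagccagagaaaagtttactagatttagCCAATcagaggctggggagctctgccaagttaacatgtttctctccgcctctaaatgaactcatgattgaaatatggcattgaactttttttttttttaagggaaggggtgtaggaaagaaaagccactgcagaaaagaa

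The Cav1 and Cav2 windows were rich in G and C (59.6% and 62.0%, with 10 CpG each), and the Cavin2 window was not (40.4%, with 2 CpG), against medians of 52.4% and 6 CpG over 32536 RefSeq windows of this length. The GC box was found in Cav1 and Cav2, at -118 and -9 from the start, and in 33.0% of all windows. The CCAAT box was found in Cav2 and Cavin2, at -182 and -140, and in 33.8% of all windows. The AP-1 motif at -92 in Cav2 is held by 4.45% of windows, and the TATAAA match in Cav1 lies at -221, with such a match in 12.3% of windows. The TEAD motif (12.6% of windows) and the E-box (6.04%) were in none of these 3 windows. No motif was held by all 3, and a match or its absence is only a description of these letters. The Cavin1 window lies inside an annotated exon and is not printed; it held the TEAD motif at -247 or -249, by which of its RefSeq starts is taken, as well as the GC box and the CCAAT box. The window before a second RefSeq start of Cav1, at 17307640, held none of the 6 motifs, and Cavin3 was not matched.

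The genes nearest in pattern were found by the root mean square distance of centred log2 CPM (counts scaled by the TMM-adjusted library total) over the 6 libraries. Candidates were the 11590 tested genes, members left out, with an ordinary symbol and a mean of at least 5 CPM. The nearest were Tnfaip8 (0.122), Gsta4 (0.124) and Nxnl2 (0.144) for Cav1, and Marveld3 (0.158), Kcnk1 (0.185) and Cntn2 (0.194) for Cav2. For Cavin1 they were Pcsk7 (0.031), Gss (0.046) and Dusp22 (0.050), and for Cavin3 Pfkl (0.096), Marcks (0.131) and Bag2 (0.134). For Cavin2 they were Tmem37 (0.212), Tmie (0.360) and Tgm2 (0.390). The genes nearest to Cav2, Cavin2 and Cavin3 were all lowest in SSCs replicate 3, which their choice by distance over these same libraries favours. The names depend on the measure: by Pearson correlation of log2 CPM, only Pcsk7 for Cavin1 and Pfkl for Cavin3 were again among the 3 nearest. Distances among the 5 caveolae genes ran from 0.876 (Cav2 and Cavin2) to 2.02 (Cav2 and Cavin1). Set among the 11590 candidates, Cav2 would rank 110 by its distance from Cavin2, and Cavin2 would rank 282 from Cav2. By contrast, Cav2 would rank 10671 from Cavin1, and Cavin1 would rank 2368 from Cav2. The ranks are a description without a test.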

How the data were processed

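Polyadenylated RNA was sequenced in 3 SSC and 3 iNSC libraries with a stranded kit, per the labels' protocols. Groups and replicate numbers follow the sample titles, source names and stage labels; the cell type label contradicts them for each of the 6 samples and was set aside. The authors deposited whole-number read counts and FPKM for 55401 genes, and FPKM equals the count divided by exonic length and column total, within 0.0050. HISAT2, DESeq2 and mm9 are named in the submitters' processing notes; which counter was used, and whether it read strand, is not given in the sources used here. Coordinates match GENCODE M21 (GRCm38) for 54784 genes, the 5 members included, and are printed on that build. Antisense or overlapping genes share the loci of Cav1, Cav2, Cavin2 and Cavin3 but held at most 5 counts in all 6 libraries together.

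From the deposited counts, edgeR 4.0.16 (R 4.3.3) was run with TMM scaling, its default filter (minimum count 10, total 15) and the quasi-likelihood test, two-sided, adjusted by Benjamini-Hochberg over 17387 genes. Genes were called, and "rose" or "fell" is written, where the adjusted p was under 0.05 and the log2 difference, iNSCs minus SSCs, was 1 or more in size. The SE given with a log2 difference is its size divided by the square root of the F statistic of that test, since edgeR reports no SE. Errors of FPKM are SD over 3 libraries, which the labels do not say are separate cultures, and p-values therefore cover only the spread among them. Members and gene lists were chosen with earlier results of these data known. The text names the 5 members, all genes of lists with up to 13 tested genes, up to 5 called genes with the largest difference in longer lists, and 3 genes nearest in pattern to each member. Exceptions are stated, and 1 gene of the flotillin and stomatin list is not reported here. The alternatives were library totals, RLE scaling, DESeq2 1.42.0, limma 3.58.1 on log2(FPKM + 1) or log2(FPKM + 0.1), no filter or at least 1 CPM in 3 libraries, a replicate block and leaving out each library. Exact Poisson intervals (95%) cover counting error only. At this depth 3 counts correspond to 0.149 to 0.166 CPM. Within each group, every pair of libraries differed beyond sampling error (chi-square per degree of freedom 4.98 to 91.5).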

Additional observations from a re-analysis of the deposited data

How the results depend on the processing

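The log2 differences of the 5 caveolae genes kept their sign under every alternative run. Leaving out 1 library gave 3.185 to 3.56 for Cav1, 4.67 to 5.80 for Cav2, 1.52 to 1.61 for Cavin1, 3.08 to 4.07 for Cavin2 and 1.63 to 2.76 for Cavin3. Limma on log2(FPKM + 1) has no TMM scaling and a pseudocount that shrinks low genes. It gave 2.89 for Cav1, 3.885 for Cav2 and 1.27 for Cavin1. Cavin1, which is not a low gene, was at 1.28 with a pseudocount of 0.1 and at 1.285 with library totals, likewise without TMM. TMM-scaled levels per kilobase were 28.6 for Cav2, 161 for Cavin1 and 16.6 for Cavin3 in iNSCs and 55.3 for Cavin1 in SSCs. Under limma on log2(FPKM + 1), 2746 genes of all tested were called higher, 0 flotillin and stomatin genes and 1 gene for a caveola receptor or kinase lower, 5 neighbours higher and 0 lower, and 15 genes annotated to caveolae higher. Neighbours called lower numbered 0 to 2 when 1 library was left out: Tmeff2 and Hpx were both lost without iNSCs replicate 2 or iNSCs replicate 3. Cavin4 turned to -0.065 with library totals, -0.13 and -0.021 under limma with pseudocounts of 0.1 and 1, and ran from -0.34 (without iNSCs replicate 3) to 0.57 (without iNSCs replicate 2) when 1 library was left out. Ccn2 ran from -0.88 (without SSCs replicate 3) to 0.27 (without SSCs replicate 1). Dnm1 lost its call under 5 alternatives and Dnm3 under 3. Same-numbered libraries of the groups share only a number: their deviations correlated at 0.0907, 0.0496 and -0.0150, and not every library correlated best with its own number. With the replicate block 4510 genes were higher and 4661 lower, and 1 neighbour was lower, Hpx losing its call (log2 -1.04, adjusted p = 0.0544 in edgeR); it changed no other count here by over 1.5 times. Of the 3 genes nearest in pattern, Pearson correlation shared 0 for Cav1, Cav2 and Cavin2 and 1 each for Cavin1 and Cavin3. For Cav3, Stoml3 and Ednrb the depth allowed no test.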

Other observations

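The deposited table annotates 80 genes to the cellular component caveola, 4 of them members (Cavin3 is not among them). This list was added after the table was seen. Of the other 76 genes, 61 were tested, and 24 rose and 12 fell in iNSCs (39.3% and 19.7%, median log2 0.55), against 25.7% and 27.6% of all genes tested. The genes named here were chosen after their values were seen. The largest rise was that of Cdh13, a cadherin held by a lipid anchor (log2 6.33), followed by Myof, the membrane repair protein myoferlin (log2 4.26), and by Tgfbr2. The sodium pump subunit gene Atp1b1 was up by 3.95 on the log2 scale and the glucose transporter gene Slc2a1 by 2.20. Among those that fell, Cdh15, a muscle cadherin, was at -6.01, Plvap, the endothelial diaphragm protein of caveolae, at -3.15 and the glucose transporter gene Slc2a3 at -2.95. Plvap stood at 2.99, 5.16 and 11.0 FPKM in the SSC libraries, replicates 1 to 3, and at most 0.9 FPKM in iNSCs. Its difference between the groups was opposite in sign to those of the 5 coat genes.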
